A study of Homo sapiens with 17 samples.

Results

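H3K27me3 canyons of middle size are stretches of 50 to 500 kb that were listed as losing trimethylation of histone H3 lysine 27 when IMR90 cells became senescent. They were chosen by length alone, as every region of the deposited canyon list on the 22 autosomes with an end minus start of at least 50000 bp and under 500000 bp. The rule found 382 regions among 1365 autosomal canyons (28.0%), and among 1374 canyons on all chromosomes. Because the list itself was called from H3K27me3, loss of the mark in these regions is the criterion of choice and not a result. Their placement relative to the lamina and to H3K4me3 was read from other lists.

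IMR90 is a line of human lung fibroblasts. For replicative senescence, H3K27me3 was profiled by chromatin immunoprecipitation and sequencing in proliferating cells at population doubling 24 (4 libraries) and in senescent cells at doubling 87, held for 2 weeks after growth stopped (2 libraries). H3K4me3 was profiled in the same 2 states with 1 library each, total histone H3 with 2 libraries each, and lamin B1 with 1 library of proliferating cells. For oncogene-induced senescence, cells at doubling 15 had been infected with a retrovirus carrying pLNC-ER:Ras, and Ras was switched on with 100 nM of 4-hydroxytamoxifen. They were set against cells at doubling 15 labelled control, with 1 H3K4me3 and 1 H3 library for each; whether the control cells carry the construct is not stated. Proliferating and replicatively senescent cells were grown at low oxygen, and the medium of the oncogene experiment held G418. All cells come from 1 line. The lists hold coordinates of build hg18 and no measured value, so no value per library, depth or marker of cell identity could be read from them.

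H3K27me3 is the mark laid down by Polycomb repressive complexes, which keep developmental genes silent and can spread over broad domains. Lamina-associated domains (LADs) are long, mostly gene-poor stretches of chromatin that touch the nuclear lamina, a meshwork to which lamin B1 belongs. H3K4me3 normally marks active promoters. In the study's vocabulary a mesa is a wide region where senescence raised a mark and a canyon one where senescence lowered it; the canyon list has no header that states a direction, so it is taken from the name. A mesa is called replicative or Ras-induced here after the kind of senescence. Of the autosomal span, LADs covered 61.2%, canyons 35.6%, H3K27me3 mesas 17.2%, replicative H3K4me3 mesas 16.2% and Ras-induced H3K4me3 mesas 24.2%.

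The 382 regions covered 77.0 Mb, or 7.75% of the base pairs in autosomal canyons, while 448 longer canyons held 91.3% of them. A further 535 canyons were shorter than 50 kb. Within the size range the median length was 163 kb, with quartiles at 93.8 and 293 kb; 104 regions were shorter than 100 kb and 124 were 250 kb or longer. At the lower limit, the nearest regions inside were 2 of 50.3 kb each, on chromosome 2 at 242606301 to 242656599 and chromosome 17 at 71634101 to 71684399. Those just outside were 49.9 kb (chromosome 14 at 75126701 to 75176599) and 49.5 kb (chromosome 5 at 66155601 to 66205099). At the upper limit, regions of 499.5 kb (chromosome 11 at 34352001 to 34851499) and 496.4 kb (chromosome 5 at 42934601 to 43430999) were inside. Regions of 502.1 kb (chromosome 15 at 63428801 to 63930899) and 504.2 kb (chromosome 7 at 54889301 to 55393499) were outside.

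The first question was where these losses lay relative to the lamina of proliferating cells. The regions split into 3 groups of similar size. A total of 114 (29.8%, 95% interval 25.3 to 34.7%) lay wholly inside LADs, 121 (31.7%, 27.04 to 36.6%) wholly outside, and 147 (38.5%, 33.6 to 43.6%) crossed at least 1 LAD border. Among autosomal canyons of all sizes these shares were 34.2%, 23.5% and 42.3%. Intervals are exact binomial (Clopper-Pearson) ones that cover counting error only and treat regions as independent, which neighbouring regions are not. In base pairs, 45.3% of these canyons lay in LADs, against 61.2% of the autosomal span, 65.5% of canyons under 50 kb and 39.9% of canyons of 500 kb and more.

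**Figure D1:**
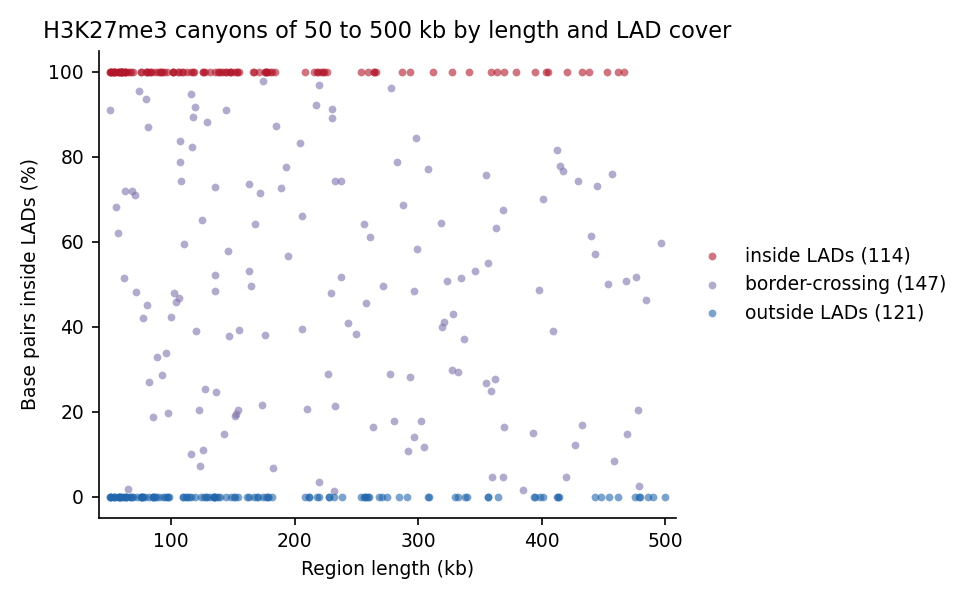
Share of base pairs inside LADs (vertical axis, %) against length (horizontal axis, kb) for each of the 382 H3K27me3 canyons of 50 to 500 kb, 1 point a region, coloured by LAD class. The 114 regions at 100% and the 121 at 0% form the lines at top and bottom at all lengths, and the 147 border-crossing regions fill the range between them.

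Length went with class. Median lengths were 129 kb inside LADs, 144 kb outside and 229 kb for border-crossing regions. Of 104 regions of 50 to 100 kb, 20 (19.2%) crossed a border, 43 (41.3%) lay inside and 41 (39.4%) outside. Of 90 regions of 300 to 500 kb, 48 (53.3%) crossed a border, 16 (17.8%) lay inside and 26 (28.9%) outside. A longer stretch more readily holds a LAD edge wherever it lies, so the definition of the classes itself ties them to length. These canyons held 184 LAD edges in all, or 2.39 per Mb. The corresponding values were 2.45 per Mb in canyons under 50 kb, 1.76 per Mb in those of 500 kb and more, and 1.43 per Mb over the autosomal span. H3K27me3 mesas of the same 50 to 500 kb held 0.47 edges per Mb, and 396 of those 469 mesas (84.4%) lay wholly inside LADs. Of these gains 6.82% crossed a LAD border, against 38.5% of the losses of the same length. The difference was not tested.

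The LADs that hold the regions inside LADs had a median length of 765 kb, against 430 kb for all 2001 autosomal LADs. Each region filled a median of 17.2% of its host (quartiles 7.74 and 37.4%), and 16 of 114 filled at least 50%. The median distance to the nearer edge of the host was 70.9 kb, and 48 of 114 regions came within 50 kb of that edge. The 114 regions were spread over 101 different LADs. The longest were on chromosome 16 at 80309501 to 80775899 (466.4 kb), chromosome 2 at 95578701 to 96040099 (461.4 kb) and chromosome 6 at 138309201 to 138762199 (453.0 kb). The last of these took up 90.6% of a LAD of 500.0 kb, and an H3K27me3 mesa began 22.6 kb to its right.

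For the 120 regions outside LADs with a LAD on both sides, the gap between those LADs had a median length of 1315 kb, against 300 kb for all 1979 autosomal gaps. Longer LADs and gaps have more room to hold a whole region. The regions filled a median of 12.6% of the gap and stood a median of 202 kb from its nearer end; 24 of 120 came within 50 kb of it. The longest were on chromosome 11 at 34352001 to 34851499 (499.5 kb), chromosome 2 at 54312601 to 54802799 (490.2 kb) and chromosome 4 at 25707401 to 26193299 (485.9 kb). Only 11 filled at least 50% of their gap. The fullest was on chromosome 22 at 25837101 to 26312699 (475.6 kb), with 93.3% of a gap of 510.0 kb. The next, on chromosome 6 at 32938201 to 33069999 (131.8 kb), took up 77.5% of a gap of 170.0 kb.

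Border-crossing regions had a median of 48.7% of their base pairs in LADs, with wide quartiles of 25.2 and 72.3%. A single LAD edge was held by 114, 2 edges by 29 and 3 edges by 4. Whole inter-LAD gaps were held by 27 regions and whole LADs by 10, and 4 regions held both. For the 114 with a single edge, the part inside the LAD had a median of 70.7 kb and the part outside a median of 93.1 kb. The longest regions of this class were on chromosome 5 at 42934601 to 43430999 (496.4 kb, 59.7% in LADs), chromosome 3 at 133456201 to 133940499 (484.3 kb, 46.3%) and chromosome 2 at 175293701 to 175771999 (478.3 kb, 2.51%). The first and second of these each held a whole gap. Among those with 3 edges were chromosome 2 at 47826901 to 48241799 (414.9 kb) and chromosome 4 at 153906201 to 154251799 (345.6 kb), each holding 1 whole LAD and 1 whole gap. In 12 border-crossing regions the part on one side of the border was under 10 kb, the step on which LAD starts lie, so their class rests on the precision of the LAD edge.

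The edges of the regions seldom met a LAD edge. Over 764 region edges, the median distance to the nearest LAD edge was 114 kb, 46 (6.02%) lay within 10 kb and 220 (28.8%) within 50 kb. For the edges of shorter and longer canyons the medians were 120 kb and 111 kb, with 4.58% and 5.13% within 10 kb. Edges of regions outside LADs were farther away, at a median of 299 kb, than those of regions inside LADs, at 140 kb.

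The second question concerned what flanks these losses. Most of them stood next to another canyon: 242 of 382 (63.4%, 58.3 to 68.2%) had one within 10 kb, against 55.4% of autosomal canyons of all sizes. The share was 64.1% for canyons of 500 kb and more and 42.4% for those under 50 kb, so the middle-sized canyons were near the longer ones. The gaps fell into 2 ranges with little between them. Of 642 gaps between a region of this size and the next canyon, 197 were under 1 kb, 78 were 1 to 10 kb, 14 were 10 to 50 kb and 352 were 50 kb or more. The remaining one is an overlap. Among the 275 gaps under 10 kb the median was 0.601 kb and the shortest 0.101 kb. The shortest is about a single step of the 100 bp grid on which canyon starts lie, and 56 gaps had that length. All 1343 gaps between autosomal canyons, which include those above, were spread in the same way. Of these, 342 were under 1 kb, 157 were 1 to 10 kb, 28 were 10 to 50 kb and 815 were 50 kb or more. The 2 ranges are thus a property of the whole canyon list and not particular to the middle size.

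**Figure D2:**
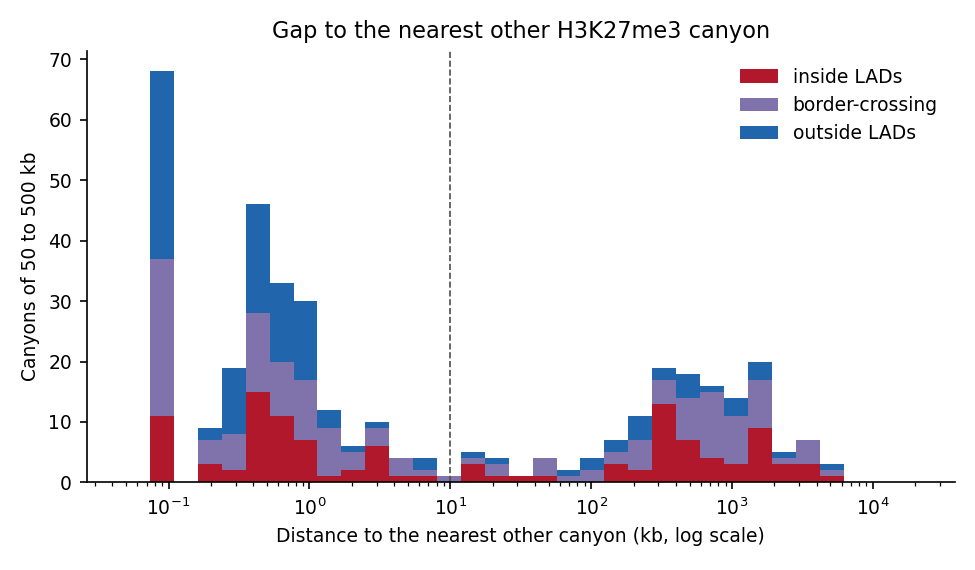
Distance from each of the 382 canyons of 50 to 500 kb to the nearest other canyon (horizontal axis, kb, log scale), counted in bins (vertical axis, regions) and stacked by LAD class, with a dashed line at 10 kb. The 242 regions left of the line and the 140 right of it form separate heaps, and regions outside LADs make up 95 of those on the left.

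Narrow gaps were most frequent outside LADs. There, 95 of 121 regions (78.5%, 70.1 to 85.5%) had another canyon within 10 kb, and 47 had one on both sides. Inside LADs, 60 of 114 (52.6%, 43.1 to 62.1%) had one and 23 had them on both sides. Of border-crossing regions, 87 of 147 (59.2%, 50.8 to 67.2%) had one. The shares over canyons of all sizes were 63.6% outside LADs, 42% inside and 61.7% across a border. In 126 of the 275 narrow gaps the neighbour was a canyon of 500 kb or more, in 87 one under 50 kb and in 62 another region of this size.

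When canyons under 10 kb apart were joined, 179 of the 382 (46.9%) became part of a canyon of 500 kb or more, 63 became part of a joined canyon that stayed under 500 kb, and 140 (36.6%) stood alone. Those alone comprised 54 regions inside LADs, 26 outside and 60 crossing a border, with 55.7% of base pairs in LADs. The 179 pieces comprised 47, 73 and 59, with 38.7% in LADs. After joining, 194 canyons of 50 to 500 kb were left, of which 35.1% lay inside LADs, 19.6% outside and 45.4% across a border. Joining therefore lowered the share outside LADs from 31.7 to 19.6%.

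With gaps of up to 50 kb allowed, 255 of the 382 regions belonged to 166 chains of canyons with a median length of 1.22 Mb and a median of 3 canyons. Another canyon likewise lay within 50 kb of 293 of 448 canyons of 500 kb and more, and of 252 of 535 under 50 kb. Belonging to a chain was thus not particular to the middle size. The longest chains were built around very long canyons. That on chromosome 5 at 16528801 to 35238899 (18.7 Mb) held 4 canyons, 2 of them of middle size, with gaps that summed to 3.30 kb. On chromosome 2 at 181827301 to 200048699 (18.2 Mb) a single middle-sized region lay 0.701 kb from its long neighbour. The chain on chromosome 1 at 180959701 to 198288899 (17.3 Mb) held 4 long canyons and 1 of middle size, with gaps of at most 0.501 kb. In contrast, 61 of the 166 chains held no canyon of 500 kb or more.

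A mesa of H3K27me3 lay within 100 kb of 60 of 382 regions (15.7%), near the 14.7% of autosomal canyons of all sizes. The nearest was at a median of 387 kb, between 339 kb for canyons under 50 kb and 427 kb for those of 500 kb and more. By class the medians were 361 kb for regions inside LADs, 818 kb outside and 312 kb for border-crossing ones. Mesas took up 0.97% of the first 50 kb on both sides and 14.5% at 450 to 500 kb, against 17.2% of the autosomal span. Around canyons under 50 kb the corresponding values were 1.37% and 16.9%, and around those of 500 kb and more 0.68% and 12.2%. Low mesa cover next to the edge was thus common to canyons of all sizes. Going outward, the first H3K27me3 region met was a canyon on both sides for 140 regions, a canyon on one side and a mesa on the other for 162, and a mesa on both sides for 73. The remaining regions had no further canyon or mesa on one side.

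**Figure D3:**
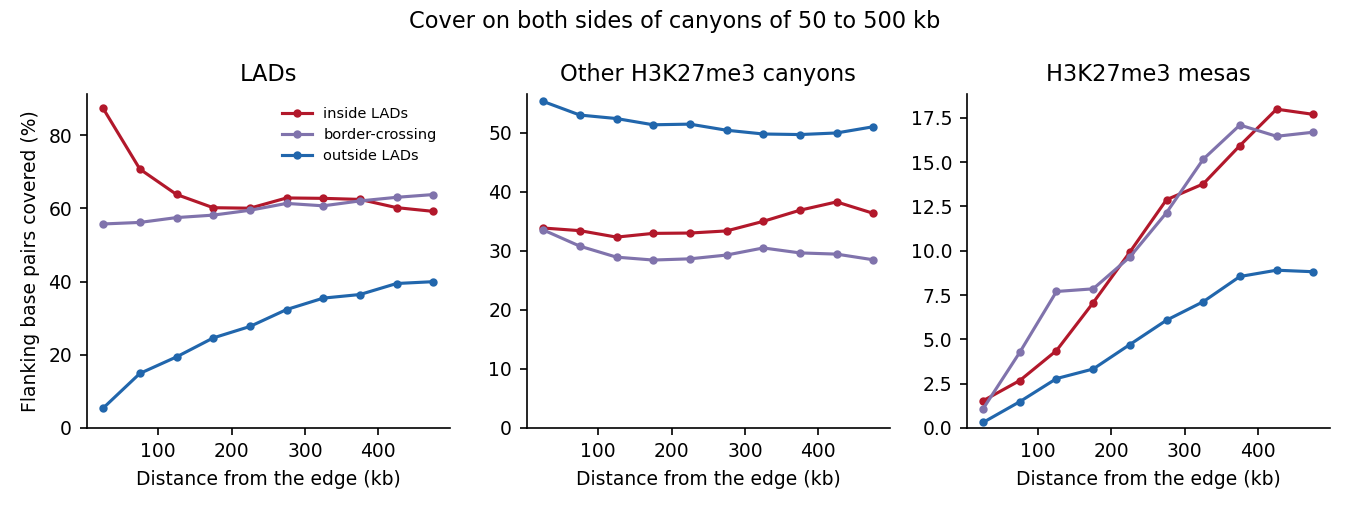
Share of flanking base pairs (vertical axes, %) under LADs, other canyons and H3K27me3 mesas in bins of 50 kb out to 500 kb from the edges of canyons of 50 to 500 kb (horizontal axes, kb, both sides pooled), by LAD class. Around regions outside LADs, LAD cover rises from 5.40% to 40.0% and canyon cover stays between 49.7 and 55.3%, while mesa cover is at most 1.53% in the first 50 kb and at least 8.81% at 450 to 500 kb in all 3 classes. Canyons cover 54.7% of all base pairs outside LADs.

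In windows of 100 kb on each side, other canyons took up 54.1% of base pairs around regions outside LADs, 33.6% around those inside and 32.2% around border-crossing ones. Over the autosomal span, canyons covered 54.7% of all base pairs outside LADs and 23.6% of those in LADs. The value around regions outside LADs was thus near that of all base pairs outside LADs. LADs took up 10.1%, 79.0% and 55.9% of the same windows. Canyon cover changed little with distance: over all 382 regions it was 40.5% in the first 50 kb and 38.0% at 450 to 500 kb, against 35.6% of the autosomal span. Around regions inside LADs, LAD cover fell from 87.3% in the first 50 kb to 60.2% at 150 to 200 kb, close to the 61.2% of the span.

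For regions that crossed a single LAD edge the sides can be compared. On the LAD side, the 100 kb beyond the region held 28.3% canyon and 4.43% H3K27me3 mesa base pairs, and 20 of 114 windows met such a mesa. On the other side the values were 43.1% and 0.85%, with 3 of 114. All base pairs in LADs differ from those outside in the same directions. Canyons covered 23.6% of the former and 54.7% of the latter, and H3K27me3 mesas 25.7% and 3.72%. Whether the difference between the sides goes beyond this was not tested. Another canyon stood within 10 kb of 43 of 114 on the LAD side and of 50 of 114 on the other side. Laid out from the crossed edge, these regions covered 83.2% of the first 50 kb into the LAD, 47.1% of the next 50 kb and 25.01% at 100 to 150 kb. H3K27me3 mesas took up none of the first 50 kb of the LAD and 13.4% of base pairs at 150 to 200 kb. Away from the LAD, mesas first appeared at 150 to 200 kb, with 0.68%. Any canyon covered 90.6% of the first 50 kb of the LAD and 34.5% at 150 to 200 kb. Only 1 of the 382 regions overlapped an H3K27me3 mesa. Choosing regions that hold the edge thus leaves mesas little room near it, and the mesa values there are not a separate result.

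**Figure D4:**
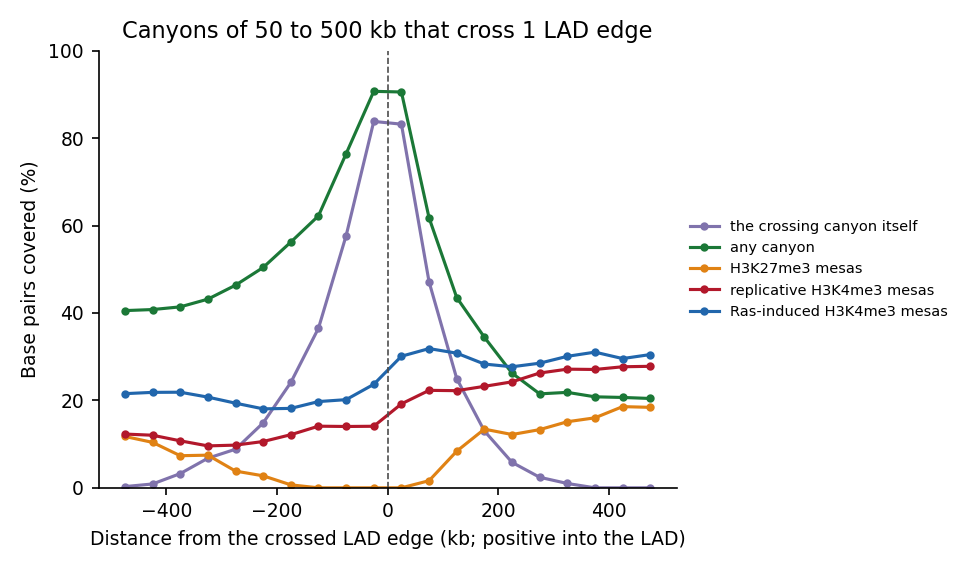
Share of base pairs covered (vertical axis, %) in bins of 50 kb on both sides of the LAD edge crossed by 114 canyons of 50 to 500 kb that hold exactly 1 edge (horizontal axis, kb, positive into the LAD), for the crossing canyon, any canyon and 3 kinds of mesa. The crossing canyon covers 83.8% just outside and 83.2% just inside the edge, which its choice brings about, and H3K27me3 mesas reach 13.4% at 150 to 200 kb into the LAD. Any canyon covers 90.6% just inside the edge, so the choice also leaves mesas little room there.

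The third question was how far the stretches of these losses were also listed as gaining H3K4me3. Every H3K4me3 mesa was at least 501.0 kb long, so each of the 382 regions was shorter than any of them. Replicative mesas met 79 regions by at least 1 bp (20.7%, 16.7 to 25.1%), against 22% of autosomal canyons of all sizes. They covered 38 regions wholly (9.95%, against 8.86% of all autosomal canyons) and at least 50% of 60 (15.7%, against 12.6%). Ras-induced mesas met 140 (36.6%, 31.8 to 41.7%), against 39.3% of all autosomal canyons. They covered 92 wholly (24.1%, against 19.1%) and at least 50% of 116 (30.4%, against 25.6%). Of canyons under 50 kb, replicative mesas wholly covered 15.1% and Ras-induced mesas 29.5%. Neither list met 219 regions. Replicative mesas alone met 23, Ras-induced mesas alone 84, and both lists 56. These joint counts were not made for canyons of other sizes. In base pairs, 15.2% lay under replicative and 32.2% under Ras-induced mesas, against 16.2% and 24.2% of the autosomal span.

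Replicative mesas met 32 of 114 regions inside LADs (28.1%, 20.1 to 37.3%), 32 of 147 border-crossing regions (21.8%, 15.4 to 29.3%) and 15 of 121 outside (12.4%, 7.11 to 19.6%). Ras-induced mesas met 45 of 114 (39.5%, 30.4 to 49.1%), 54 of 147 (36.7%, 28.9 to 45.1%) and 41 of 121 (33.9%, 25.5 to 43.0%). For replicative mesas the intervals of the regions inside and outside LADs barely failed to overlap (20.1% against 19.6%), and for Ras-induced mesas those of all 3 classes overlapped. The intervals treat regions as independent, though neighbouring regions can lie under the same mesa. Of all base pairs, replicative mesas covered 23.6% in LADs and 4.51% outside. Among canyons of all sizes, replicative mesas met 20.8% of those inside LADs, 28.6% of border-crossing ones and 11.8% of those outside. Ras-induced mesas met 32.3%, 48.2% and 33.6% of the same classes. The middle-sized canyons outside LADs were thus near the share for all canyons of their class with both lists. Those inside LADs were above it and border-crossing ones were below it. Of the 577 border-crossing canyons of all sizes, 406 were 500 kb or longer, and of the 467 inside LADs 346 were under 50 kb. A longer region is more readily met by 1 bp, so these comparisons mix class with length. Differences were not tested. Within border-crossing regions, replicative mesas covered 17.5% of the LAD part and 9.07% of the remainder, and Ras-induced mesas 36.3% and 27.9%.

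Outside LADs, Ras-induced mesas lay over 30.0% of the base pairs of middle-sized canyons, against 13.6% of all base pairs outside LADs. The share was 32.5% in canyons under 50 kb, 12.1% in canyons of 500 kb and more, and 12.1% in stretches outside LADs with no H3K27me3 region. In H3K27me3 mesas outside LADs, which are gains of the mark, it was 33.2%, so a high share was not particular to losses. Leaving out each autosome in turn kept the value for the middle-sized canyons between 29.1% (without chromosome 22) and 31.8% (without chromosome 7). It was above the value of all base pairs outside LADs of the same autosome on 20 of 22 autosomes. Base pairs were also divided by distance from LADs: within 50 kb of a LAD edge the share was 30.9% against 18.7% of all base pairs at that distance, and beyond 500 kb it was 32.7% against 8.75%. Stretches without assembled sequence were not removed, and the longest inter-LAD gap was 20100 kb. Any such stretch between LADs counts as outside LADs and under no mesa. It thus lowers the shares of all base pairs, above all far from LADs, by an unknown amount. The 100 kb flanks of regions outside LADs were under Ras-induced mesas to 29.4%, beside 31.7% of the regions themselves. The Ras-induced list comes from other cells, at another doubling, than the canyons and the LADs. None of these differences was tested, as the lists give no value per library.

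Inside LADs, Ras-induced mesas covered 34.9% of the base pairs of middle-sized canyons in LADs, against 30.8% of all LAD base pairs, and the canyons were above the value of the same autosome on 9 of 22. H3K27me3 mesas, which overlap only 1 of the 382 regions, lay under Ras-induced mesas over 56.1% of their base pairs in LADs. LADs outside H3K27me3 mesas had 22.1%. For replicative mesas the values were 22.03% in the middle-sized canyons, 23.6% in all LADs and 17.7% in LADs without H3K27me3 mesas. Leaving out chromosome 11 lowered the first to 18.4%. Outside LADs replicative mesas covered 9.55% of the middle-sized canyons and 4.51% of all base pairs, with the canyons higher on 12 of 22 autosomes. There the share was 15.5% in canyons under 50 kb, 3.30% in canyons of 500 kb and more, and 10.2% in H3K27me3 mesas. The higher share was thus not particular to the middle size or to losses. Without chromosome 11 the 9.55% became 7.81%.

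**Figure D5:**
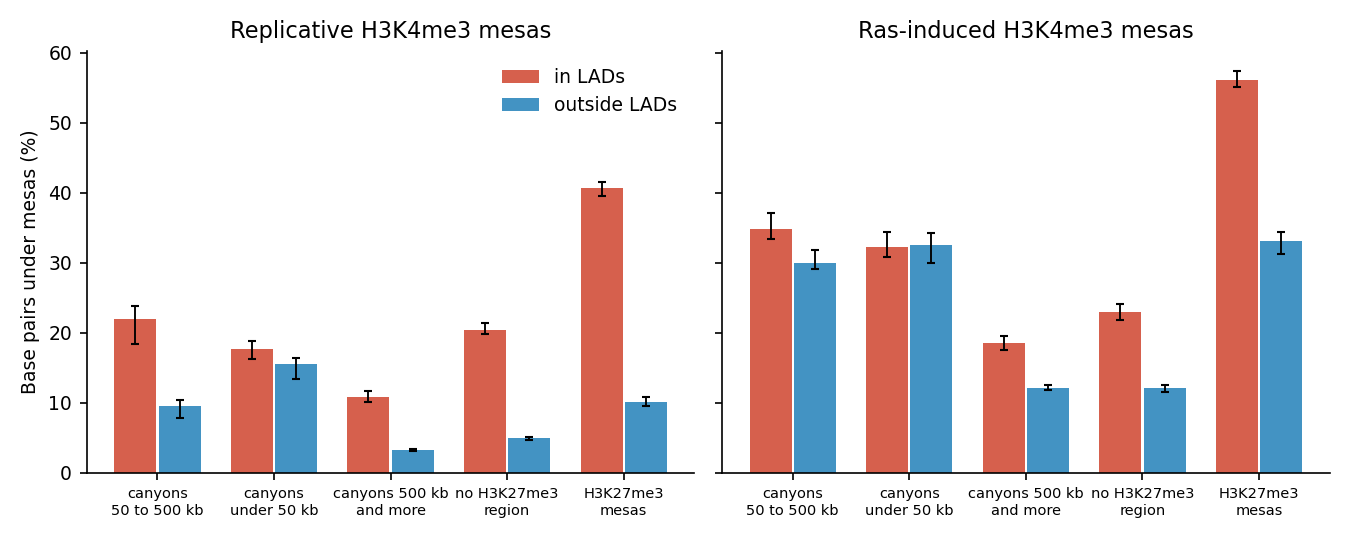
Share of base pairs under replicative (left) and Ras-induced (right) H3K4me3 mesas (vertical axis, %) for canyons of 3 size classes, stretches with no H3K27me3 region and H3K27me3 mesas, each divided into base pairs in and outside LADs. Bars are shares over 22 autosomes and error lines run from the lowest to the highest value when 1 autosome is left out; under Ras-induced mesas, canyons of 50 to 500 kb stand at 34.9% in and 30.0% outside LADs.

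Some regions lay under the H3K4me3 gains of both kinds of senescence, while their loss of H3K27me3 was measured in replicative senescence alone. Of the 79 regions met by replicative mesas, 70.9% were also met by Ras-induced mesas, and of the 140 met by Ras-induced mesas 40.0% were also met by replicative ones. Both lists wholly covered 23 regions: 12 inside LADs, 5 outside and 6 across a border. None of these joint values was computed for other canyons or for the whole span. Whether they are particular to these regions was not tested. Inside LADs the most base pairs under both were on chromosome 13 at 50293801 to 50714099 (416.1 of 420.3 kb) and chromosome 16 at 80309501 to 80775899 (382.9 of 466.4 kb). Outside LADs they were on chromosome 22 at 25837101 to 26312699 (all 475.6 kb) and chromosome 11 at 19324901 to 19632399 (302.1 of 307.5 kb). Across a border they were on chromosome 2 at 111153101 to 111565699 (403.7 of 412.6 kb) and chromosome 11 at 63816201 to 64179299 (all 363.1 kb). The region on chromosome 22 combined 2 extremes, since it also filled the largest share of its gap.

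The 79 were met by 70 different replicative mesas, of 587 on the autosomes (11.9%), and the 140 by 114 different Ras-induced mesas, of 755 (15.1%). Only 9 replicative and 21 Ras-induced mesas met more than 1 region. The most met by a single mesa were 4, under a Ras-induced mesa on chromosome 3 at 45770001 to 46969999, and 3, under a replicative mesa on chromosome 11 at 31836001 to 32971999. The regions can also be divided into those standing alone and those adjoining another canyon, a division made after the data were seen. Replicative mesas met 33 of 140 alone (23.6%, 16.8 to 31.5%) and 46 of 242 adjoining (19.0%, 14.3 to 24.5%). Ras-induced mesas met 56 of 140 (40.0%, 31.8 to 48.6%) and 84 of 242 (34.7%, 28.7 to 41.1%).

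Autosomes differed in how many of these regions they carried and in what covered them. There were 17.4 ± 9.52 per autosome (SD, 22 autosomes), from 3 on chromosome 21 to 41 on chromosome 1, and 1.42 ± 0.47 per 10 Mb. Chromosome 11 was densest, with 34 regions or 2.53 per 10 Mb, and chromosome 3 sparsest, with 15 or 0.75 per 10 Mb. Chromosome 11 also had the most regions met by H3K4me3 mesas: 15 of 34 by replicative and 19 of 34 by Ras-induced ones, or 42.4% and 44.5% of base pairs. Chromosome 10 had 22 regions, of which 1 was met by a replicative and 11 by a Ras-induced mesa. On chromosome 18, with 16 regions, replicative mesas met none and Ras-induced mesas met 4, and 13 of 16 had another canyon within 10 kb. Chromosome 19 was at the other end, with 3 of 11 having such a neighbour, 79.0% of base pairs in LADs and 62.5% under Ras-induced mesas. Over autosomes the share of base pairs was 44.8 ± 15.05% in LADs, 15.8 ± 13.6% under replicative and 35.0 ± 14.7% under Ras-induced mesas (SD, 22 autosomes).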

How the data were processed

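The authors deposited 5 region lists, whose values are coordinates in base pairs of build hg18. Reads were aligned with Bowtie 0.12.5, per the submitters' processing notes. How regions were called, at which thresholds, and whether replicates were pooled or H3 was subtracted is not given in the sources used here. Canyon starts fall on multiples of 100 bp and LAD starts on multiples of 10000 bp. Direction is stated in a header only for the replicative H3K4me3 list and is taken from the names mesa and canyon otherwise. The depth of the libraries is unknown.

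Overlaps were computed in Python 3.11.15 (pandas 2.3.3, scipy 1.17.1) from interval arithmetic tested on simulated data. Autosomal span means, for each autosome, the stretch between the outermost listed coordinates. Stretches without assembled sequence were not taken out of it. An overlap of 1 bp counted as met. No statistical test was run, as regions are not replicates. Intervals are 95% exact binomial ones. Regions are named by rule: the longest of each class, those most under both H3K4me3 lists, those with most LAD edges or filling most of a gap, the longest chains and those at the size limits. The regions and lists were chosen with earlier results of these data known. Genes and sequences are not used here, since the annotation at hand is of another build than hg18.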

Additional observations from a re-analysis of the deposited data

How the results depend on the processing

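No paired analysis was possible because the lists hold no value per library. Leaving out each autosome in turn kept all 8 shares it was applied to within the 95% interval of the full value: 28.9 to 30.6% inside LADs, 30.8 to 32.5% outside, 37.5 to 39.2% crossing a border, 18.4 to 21.7% met by replicative and 34.8 to 37.8% by Ras-induced mesas. No autosome held more than 41 of the 382 regions, so a share could hardly leave that interval in this way. Of 66 values under other settings, 40 stayed within that interval and 26 moved outside it. Joining canyons under 10 kb apart moved the shares inside, outside and across to 35.1%, 19.6% and 45.4%, and the 100 kb flanks meeting another canyon, an H3K27me3 mesa, or lying at least 50% in LADs to 6.19%, 11.9% and 56.6%. For the 140 regions with no canyon within 10 kb, a setting chosen after seeing the data, 38.6% lay inside and 18.6% outside, and the flank shares were 7.14%, 11.8% and 56.6%. An upper limit of 250 kb gave 35.3% inside and 32.2% crossing, and a lower limit of 100 kb gave 45.7% crossing. Tolerating 10% of base pairs on the other side gave 32.7% crossing, and classing by midpoint gave 45.8% inside and 54.2% outside. Asking for 50% cover left 15.7% for replicative and 30.4% for Ras-induced mesas, and asking for whole cover 9.95% and 24.1%. With flanks of 50 kb, 3.27% met an H3K27me3 mesa. With 250 kb, 20.3% did and 52.0% met another canyon. Size limits of 30 and 300 kb gave 36.8% inside for middle-sized and 4.28% for longer canyons. The cause of these moves was not tested beyond the setting itself. No score is given per region, so a stricter calling threshold could not be tried.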

Other observations

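A single region of this size touched a gain of the same mark. The canyon on chromosome 8 at 25918701 to 26043599 (124.9 kb), singled out after its values were seen, had 7.69% of its base pairs under an H3K27me3 mesa. It also held the only overlap within the canyon list, a second canyon of 47.8 kb at 25995801 to 26043599 that shares its right end. It lay 65.1% in LADs and wholly under H3K4me3 mesas of both lists.

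Chromosome X, outside the rule, had 9 canyons, of which 1 was of 50 to 500 kb. It lay at 53492001 to 53564899 (72.9 kb), wholly inside a LAD and wholly under a replicative mesa, and was not met by a Ras-induced mesa.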
